A study of Mus musculus with 4 samples.

Results

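The genes of the mitochondrial respiratory chain were followed in mouse brain 6 h after a permanent stroke. Members were all genes whose probe accession mapped to a symbol starting with Nduf, Uqcr, Atp5, Cox4, Cox5, Cox6, Cox7 or Cox8, together with Sdha, Sdhb, Sdhc and Sdhd. This gave 87 genes among the 33269 features (genes or unnamed transcripts) on the array. By role, 7 were core subunits of complex I, 28 its accessory subunits and 5 its assembly factors. The symbol rule took in the assembly factors, which are not subunits. A further 4 genes encoded complex II, 7 complex III, 19 complex IV and 17 the ATP synthase. Of 96 protein-coding genes that the rule could take, 9 had no matching accession (Ndufa11, Ndufa4l2, Ndufaf2, Ndufaf6, Ndufaf8, Ndufb1, Ndufb4b, Ndufb4c and Uqcr10) and were not analysed here, nor were the subunits encoded in mitochondrial DNA.

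The respiratory chain sits in the inner mitochondrial membrane. Complex I takes electrons from NADH and complex II takes them from succinate, both pass them through ubiquinone to complex III, and cytochrome c carries them on to complex IV, where they reduce oxygen. Complexes I, III and IV pump protons, and the ATP synthase uses the resulting gradient to make most of the ATP that neurons spend on ion pumping. When a cerebral artery is closed, the tissue it feeds loses oxygen, the last electron acceptor of the chain. The core is the region of deepest loss of flow, and the penumbra is the less severely starved tissue around it.

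The mice were male C57BL/6J aged 9 weeks. All had saline injected into the cerebral ventricle directly after the middle cerebral artery was blocked with an intraluminal filament, and tissue was taken at 6 h. The 4 two-colour Agilent arrays compared ischemic core with healthy core (replicates 1 and 2) and ischemic penumbra with healthy penumbra (replicates 3 and 4), with the dyes swapped within each pair: ischemic RNA was in Cy5 on replicates 1 and 3 and in Cy3 on replicates 2 and 4. The labels speak of 3 mice per group, chosen by neurological grade, and do not say whether RNA was pooled or where the healthy tissue was taken from. Each dye-swapped pair was therefore counted as 1 replicate, and the main comparisons have no p-value. The limma p-values given later come from an alternative that counts the arrays of a pair separately. The SD below is that between the 2 arrays of a pair.

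On every array, 76.1% to 79.4% of spots in a channel were well above background and no spot was saturated. All 8 neuronal markers on the list, Snap25 and Syt1 among them, were measured in both regions. The healthy core and healthy penumbra pieces were not the same kind of tissue. Between them, 6 of 7 striatal markers and 7 of 8 choroid plexus markers were called lower in the core piece, with medians of -1.78 and -3.34 (log2). Every ratio of ischemic over healthy tissue below is set against the typical gene of its array. Scaled to the 10 spike-in probes instead, every ratio would be 0.48 lower in the core and 0.46 lower in the penumbra (log2), for members and for other genes alike.

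Most respiratory chain genes held a nearly constant share of the RNA. In the core, 86 members were measured, and their median ratio of ischemic over healthy tissue was -0.0048 (log2), beside -0.0077 over all features measured in both regions. Pair means ran only from -0.16 for Cox8b to 0.16 for Cox6c, and the SD over members was 0.066, beside 0.19 over all features. Within 0.1 of 0 lay 74 of 86 members (86.0%), beside 57.1% of all features. Among 10538 other features with a log2 intensity of 9.87 to 16.49, a band that spans most members, 57.6% did. Those features were dimmer, with a median of 11.9 beside 15.2 for members, so brightness was not matched. Within 0.2 lay 86 of 86 members, beside 84.4% of all features. None of 86 members was called at 2-fold (a mean of at least 2-fold and at least 1.5-fold the same way on each array), and the share of all features called was 0.31%. At the smaller size of 1.2-fold, with both arrays on the same side of 0, 0 members were higher and 0 lower, where 6.33% of all features were higher and 2.19% lower.

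In the penumbra the median was 0.037 over 86 members, beside -0.01 over all features, and 56 of the 86 pair means lay above 0, beside 11478 of 24199 features. Pair means ran from -0.20 for Sdha to 0.74 for Cox8b, with an SD over members of 0.12, or 0.099 without Cox8b. Within 0.2 lay 81 of 86 members (94.2%), beside 76.2% of all features. None of 86 was called at 2-fold, where 0.245% of all features were. At 1.2-fold, 2 members were higher (Cox8b and Ndufc1) and 0 lower, where 8.06% of all features were higher and 4.84% lower. The upward lean of the penumbra turned with the normalisation: centring each array on its median without loess gave a median of -0.056. Among the named genes below, the penumbra means of Cox4i1, Cox6b1, Cox7a1, Cox7b, Ndufa4, Ndufs8, Sdhb and Uqcr11 turned from above to below 0 with it.

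**Figure D1:**
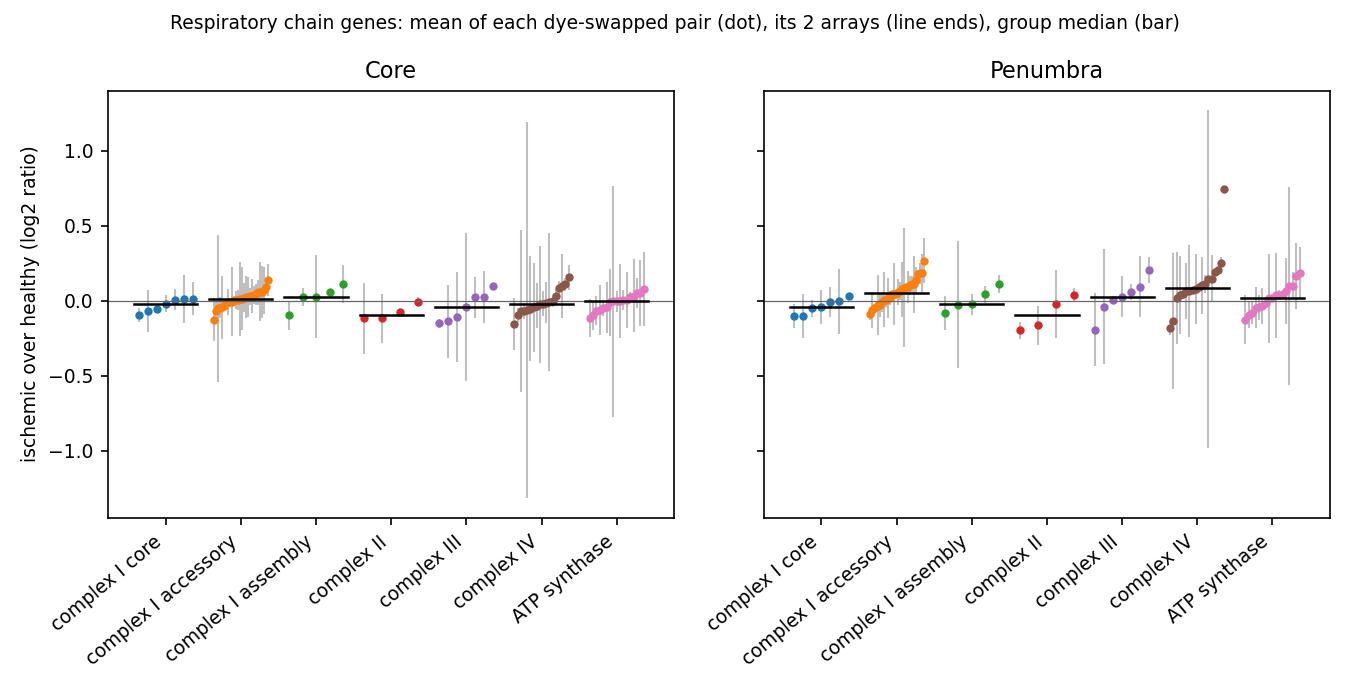
Ratio of ischemic over healthy tissue (log2) for 86 respiratory chain genes, by complex, in the core (left) and penumbra (right). Each dot is the mean of a dye-swapped pair, the grey line joins its 2 arrays and the black bar is the group's median. All core means lie between -0.16 and 0.16, and in the penumbra 1 gene of complex IV, Cox8b, stands apart at 0.74.

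Complex I, the NADH dehydrogenase, supplied 40 of the 87 members. Its 7 measured core subunits, which carry the flavin and the iron-sulfur clusters, had medians of -0.020 (core) and -0.044 (penumbra). The lowest was Ndufv1, the flavin-binding subunit, at -0.14 and -0.05 on the 2 core arrays and -0.18 and -0.02 on the 2 penumbra arrays, below 0 on 4 of 4. The highest in the core was Ndufv2, which holds an iron-sulfur cluster next to the flavin, at 0.12 and -0.10 (mean 0.013, SD 0.16). Ndufs8 was -0.07 and -0.04 in the core and 0.02 and 0.04 in the penumbra. Its core arrays lay below its penumbra arrays, by a mean of only 0.084.

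The 28 accessory subunits, which surround and stabilise that core, had medians of 0.012 (core) and 0.052 (penumbra). The penumbra sign turned under median centring (-0.036). Ndufa5 was the highest in the core, at 0.25 and 0.03 (mean 0.14, SD 0.15), and was 0.25 and 0.11 in the penumbra. Ndufb4 was the lowest, at 0.02 and -0.27 (mean -0.13, SD 0.20). Ndufc1, a small membrane subunit, was the highest of the penumbra at 0.42 and 0.12 (mean 0.27, SD 0.21, or 20.3% higher), with 0.26 and -0.14 in the core. Its place past 1.2-fold was marginal, since the mean over its 2 probes was 0.18 and the scanner's processed signals gave 0.23. The lowest accessory subunit of the penumbra was Ndufv3, at -0.05 and -0.13.

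The 5 assembly factors, chaperones that build complex I and leave it, lay between -0.098 and 0.11 in the core and between -0.082 and 0.11 in the penumbra. Ndufaf4 was highest in both, at -0.01 and 0.24 in the core and 0.05 and 0.17 in the penumbra. Ndufaf3 was lowest in both, at -0.19 and -0.0031 in the core and -0.20 and 0.03 in the penumbra. No assembly factor went past 1.2-fold.

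Complex II, succinate dehydrogenase, is the link between the citric acid cycle and the chain, and all its subunits are encoded in the nucleus. Its 4 genes had the lowest group medians, -0.098 in the core and -0.094 in the penumbra, below 0 with the processed signals and median centring too (-0.076 and -0.104, and -0.097 and -0.196, for core and penumbra). The arrays did not agree on this: with ischemic RNA in Cy3 alone the medians were 0.034 and 0.024. Sdha, the flavoprotein that oxidises succinate, was below 0 on 4 of 4 arrays, at -0.07 and -0.08 in the core and at -0.14 and -0.25 in the penumbra. Its penumbra mean of -0.20 (SD 0.079) was 12.8% lower in ischemic tissue and was the lowest of all members there. That rank rests on its brightest probe. The second Sdha probe had a penumbra mean of -0.12, above the -0.18 of Cox7b2. Sdhc, a membrane anchor that helps bind ubiquinone, was -0.28 and 0.05 in the core and -0.30 and -0.03 in the penumbra (mean -0.17, SD 0.19). Sdhd, the other anchor, was -0.36 and 0.12 in the core and -0.25 and 0.20 in the penumbra, so its arrays fell on opposite sides of 0 in both regions. Sdhb, the iron-sulfur subunit, was -0.04 and 0.02 in the core and -0.01 and 0.08 in the penumbra.

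Complex III, which passes electrons from ubiquinol to cytochrome c, had medians of -0.043 (core) and 0.027 (penumbra). The penumbra sign turned with the processed signals (-0.012) and with median centring (-0.065). Uqcrc1, a core structural subunit, was the lowest of the penumbra at 0.05 and -0.44 (mean -0.19, SD 0.34). The second Uqcrc1 probe had a penumbra mean of -0.09. The core arrays of Uqcrc1 were as far apart at 0.10 and -0.38. Uqcrb, which contributes to the ubiquinone site, was above 0 on 4 of 4 arrays, at 0.08 and 0.12 in the core and 0.12 and 0.29 in the penumbra. Uqcr11, a small membrane subunit, was -0.12 and -0.18 in the core and 0.03 and -0.02 in the penumbra.

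The ATP synthase had medians of -0.0044 (core) and 0.017 (penumbra). The penumbra sign turned with median centring (-0.064), the processed signals (-0.0023) and the mean over probes (-0.016). On the core arrays, 0 of its 17 genes lay on the same side of 0 both times. Atp5o was the lowest in the core at 0.01 and -0.24, and Atp5md the highest at 0.32 and -0.17. In the penumbra the highest was Atp5mpl, at 0.02 and 0.36 (mean 0.19, SD 0.24), and the lowest was Atp5g2, which encodes a proton-carrying ring subunit, at -0.29 and 0.04. Atp5pb, a peripheral stalk subunit, was 0.19 and -0.18 in the core and -0.01 and -0.16 in the penumbra. Atp5b, the catalytic beta subunit, gave opposite values of 0.76 and -0.77 on the core pair and 0.76 and -0.57 on the penumbra pair, which averaged to -0.0051 and 0.097.

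Complex IV, cytochrome c oxidase, is the site where oxygen is used, and several of its nuclear subunits exist as a common form and a form restricted to certain tissues. Its 18 measured genes had medians of -0.023 in the core and 0.084 in the penumbra, where median centring gave -0.0063. The 12 genes outside the restricted isoforms had medians of -0.023 and 0.075. Cox6c, a common subunit, was above 0 on 4 of 4 arrays, at 0.07 and 0.24 in the core (mean 0.16, SD 0.12, or 0.047 with the processed signals) and 0.19 and 0.20 in the penumbra (mean 0.19, SD 0.0082). Cox7a2 was 0.04 and -0.05 in the core but 0.23 and 0.18 in the penumbra (mean 0.20, SD 0.034). Ndufa4, named for complex I but a subunit of complex IV, was 0.06 and -0.10 in the core and 0.05 and 0.09 in the penumbra. Cox4i1, the common form of the regulatory subunit, had means of -0.053 and 0.078, Cox6b1 of -0.032 and 0.066, and Cox7b of -0.043 and 0.037, in core and penumbra. The arrays of those 3 genes lay on opposite sides of 0 in each pair.

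The restricted isoforms differed more among themselves. Cox8b, the heart and muscle form of subunit 8, was 0.02 and -0.33 in the core (mean -0.16, SD 0.24) but 0.74 and 0.75 in the penumbra (mean 0.74, SD 0.0087), which is 1.67-fold. Both penumbra arrays lay above both core arrays, and the difference of core minus penumbra was -0.90. Its signal was modest: background-uncorrected median signals in the core were 208.5 to 369.5 against backgrounds of 63 to 69, and in the penumbra 511 to 1077.5 against 63 to 75. Cox8a, the common form and among the brightest members, did not share this, with 0.47 and -0.61 in the core (mean -0.071) and 0.32 and -0.59 in the penumbra (mean -0.14). Cox6b2, the form best known from testis, was -0.05 and -0.14 in the core and 0.17 and 0.05 in the penumbra, so that all penumbra arrays lay above all core arrays, by 0.21 in the mean. Cox7b2 was the lowest of complex IV in the penumbra, at -0.14 and -0.23, with -0.02 and -0.12 in the core. Cox6a2, the muscle form of subunit 6a, was -0.15 and 0.12 in the core and -0.01 and 0.30 in the penumbra. Cox7a1, the muscle form of subunit 7a, was -0.11 and 0.31 in the core and -0.09 and 0.29 in the penumbra. Cox4i2, a form that responds to low oxygen in lung and other tissues, had means of 0.083 and 0.042 at signals just above background (77.5 to 102.5 against 62 to 73). With the processed signals its means were 0.24 and 0.24. Cox8c was not well above background in any group, at signals of 63 to 70 against backgrounds of 64.5 to 73, and entered no comparison.

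The outlying Cox8b is set beside its common partner Cox8a and beside Cox6a1, the brightest member. It is also set beside Sdha, the lowest of the penumbra by its brightest probe. The upstream sequences of these 4 members are shown. They are RefSeq sequences of build GRCm38.p6, each the 250 bases before the start site written 5′ to 3′ in the direction of transcription, and capitals mark motif matches on either strand.
Cox8a (chr19:7217617-7217866, minus strand): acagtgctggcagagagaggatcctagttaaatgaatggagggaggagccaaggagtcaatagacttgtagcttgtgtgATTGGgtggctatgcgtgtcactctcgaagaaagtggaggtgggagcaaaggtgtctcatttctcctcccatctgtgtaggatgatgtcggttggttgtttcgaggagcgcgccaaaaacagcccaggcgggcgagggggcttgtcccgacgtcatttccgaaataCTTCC
Cox8b (chr7:140900447-140900696, minus strand): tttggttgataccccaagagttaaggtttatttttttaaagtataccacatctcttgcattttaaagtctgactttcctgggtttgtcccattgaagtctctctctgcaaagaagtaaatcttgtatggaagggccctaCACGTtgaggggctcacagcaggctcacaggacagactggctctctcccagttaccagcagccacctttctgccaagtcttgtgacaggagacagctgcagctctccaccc
Cox6a1 (chr5:115348959-115349208, minus strand): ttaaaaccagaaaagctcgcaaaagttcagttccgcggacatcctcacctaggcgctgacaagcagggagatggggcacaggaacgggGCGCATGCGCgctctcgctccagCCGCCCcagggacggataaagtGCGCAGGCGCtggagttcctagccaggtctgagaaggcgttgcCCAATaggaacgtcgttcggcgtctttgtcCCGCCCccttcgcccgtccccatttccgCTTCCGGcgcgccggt
Sdha (chr13:74350241-74350490, minus strand): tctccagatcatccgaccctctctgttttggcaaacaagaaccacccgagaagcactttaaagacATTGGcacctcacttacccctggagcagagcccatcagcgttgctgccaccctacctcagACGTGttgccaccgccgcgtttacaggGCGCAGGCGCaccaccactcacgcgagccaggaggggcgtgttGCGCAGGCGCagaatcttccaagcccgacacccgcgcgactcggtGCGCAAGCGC
In Sdha the capitals include 3 matches to the NRF1 motif, the 3 long runs, and in Cox6a1 they include 2, beside SP1, CCAAT and ETS matches. Cox8a has a CCAAT match and an ETS match that runs across the start site, of which only the first 5 bases lie in the stretch shown. The Cox8b stretch has a single match, to the HIF core letters. The genes were chosen for this display after their values were seen.

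Over the whole window of 300 bases (250 before to 50 after the start), 72 members had a RefSeq promoter sequence. The NRF1 motif, of a factor known to act on respiratory chain genes, stood in 18 of 72 (25.0%), beside 5.19% of 27025 genes. The motif of ETS factors such as GABP (CCGGAAG) stood in 18 (25.0%), beside 9.93%, and that of YY1 (AAGATGGC) in 10 (13.9%), beside 3.19%. At least 1 of these 3 was in 40 of 72 (55.6%), beside 16.4%. The remaining motifs differed less, with SP1 (GGGCGG) in 45.8% beside 38.2%, the CCAAT box (CCAAT) in 43.1% beside 41.1% and the HIF core (ACGTG) in 25.0% beside 21.8%. Motifs were searched on both strands, overlaps were allowed, and the member windows were richer in G and C (median 58.4%, beside 52.8%). They were also richer in CpG (median of observed over expected 0.83, beside 0.39), and the motif shares were not adjusted for this. Members with and without an NRF1 match had median ratios of -0.041 and -0.0038 in the core and of 0.039 and 0.033 in the penumbra.

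Much of the spread between the arrays of a pair followed the dye. In the core, 70 of 86 members lay on opposite sides of 0 on the 2 arrays, 7 lay above 0 on both and 9 below on both, while 26.8% and 28.1% of all features lay above or below on both. In the penumbra 50 members lay on opposite sides, 27 above and 9 below on both, beside 30.3% and 32.5% of all features. Across the 86 members the ratio of Cy5 over Cy3, whichever tissue was in Cy5, had a Pearson correlation of 0.97 between the core and penumbra pairs, which share the probes and the slide. It was largest for the brightest probes: the 13 members with a log2 intensity of 16 or more had a median Cy5 over Cy3 of 0.35 (log2), and 189 other features as bright had 0.44. Cox6a1 was the extreme, at 1.19 and -1.32 on the core arrays and 1.27 and -0.99 on the penumbra arrays. Its means of -0.063 and 0.14 carried SDs of 1.77 and 1.60 between arrays. The swap cancels such an effect in the mean of a pair only where it is equal on both arrays, which was not tested. It leaves 2 values far apart.

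**Figure D2:**
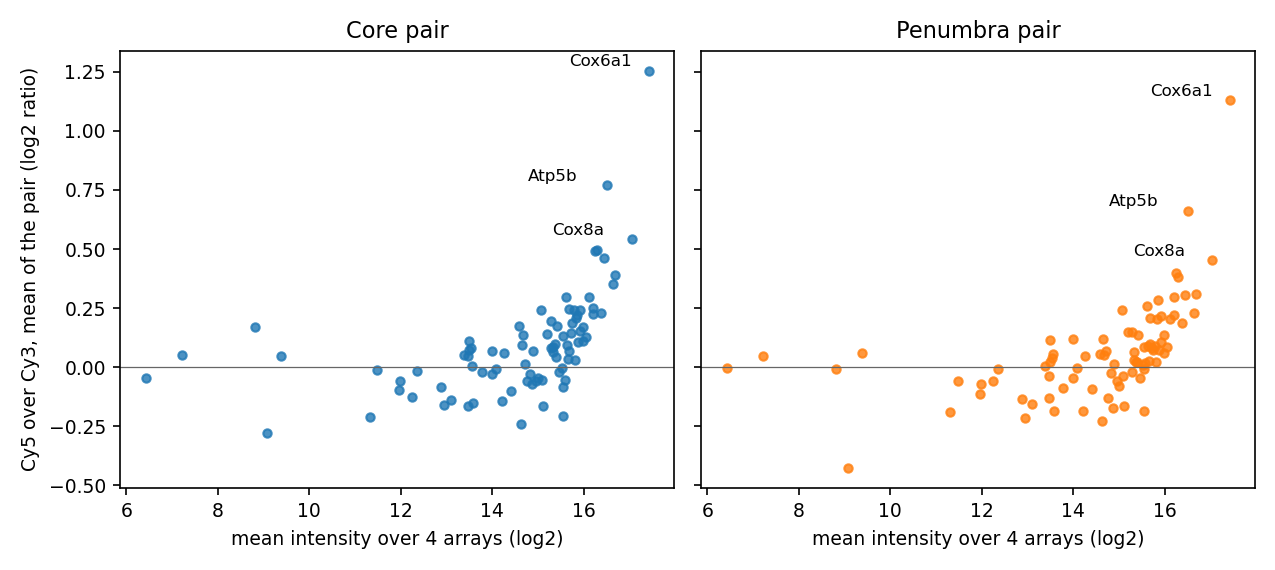
Cy5 over Cy3 (log2, mean of a pair, not turned to tissue) against mean log2 intensity over 4 arrays for 86 respiratory chain genes, in the core pair (left) and penumbra pair (right). The brightest genes have the highest ratio in both pairs, up to 1.25 and 1.13 for Cox6a1.

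A fit over the 4 arrays with a dye coefficient took out the part of this effect that the arrays share. It used limma, with Benjamini-Hochberg adjustment over all features tested. It treats arrays as separate replicates, had 1 residual degree of freedom, and so its p-values measure only the spread between arrays, which may be technical. In the core, 0 of 86 members passed an adjusted p of 0.05, where 22.4% of all features did. In the same limma fit, 9 members had an unadjusted p under 0.05, beside 35.8% of all features, and the smallest adjusted p of a member was 0.056, for Uqcr11. In the penumbra 16 of 86 (18.6%) passed, where 35.9% of all features did. Higher in ischemic penumbra were Atp5md, Atp5mpl, Cox6a2, Cox6c, Cox7a2, Cox7c, Cox8b, Ndufa5, Ndufa8, Ndufb3, Ndufc1 and Uqcrb, and lower were Cox7b2, Sdha, Sdhc and Uqcrc1. Apart from Cox8b, their sizes were 0.27 or less (log2). For Cox8b the adjusted p in limma was 6.6e-05 (mean 0.74, SE 0.064), and it was the only member past 0.05 without the dye coefficient (limma, adjusted p 0.020), where 2.99% of all features passed.

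The core and penumbra were then compared as the difference of their ratios. The median difference of core minus penumbra was -0.033 over 86 members, beside 0.0085 over all features. Above 0 lay 29 of 86 members, beside 12836 of 24199 features. The sign of the members' median turned with the normalisation and was above 0 under median centring. None of 86 was called (a difference of at least 2-fold with both core arrays lying together above or below the penumbra pair), where 0.062% of all features were. The widest differences were Cox8b at -0.90, Cox6b2 at -0.21 and Ndufc1 at -0.21 on the low side, and Sdha at 0.12, Cox7b2 at 0.11 and Atp5pb at 0.088 on the high side. In the limma fit with a dye coefficient, 1 of 86 members differed (Cox8b, -0.90, SE 0.091, adjusted p 0.0014), where 3.4% of all features did. Without the dye coefficient limma found 0 of 86 members and 7 of 24199 features, and 1 member and 4.71% of features had an unadjusted p under 0.05. Pair means of core and penumbra correlated at 0.33 across 86 members and at 0.62 across 85 without Cox8b, which describes probes measured on the same slide.

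**Figure D3:**
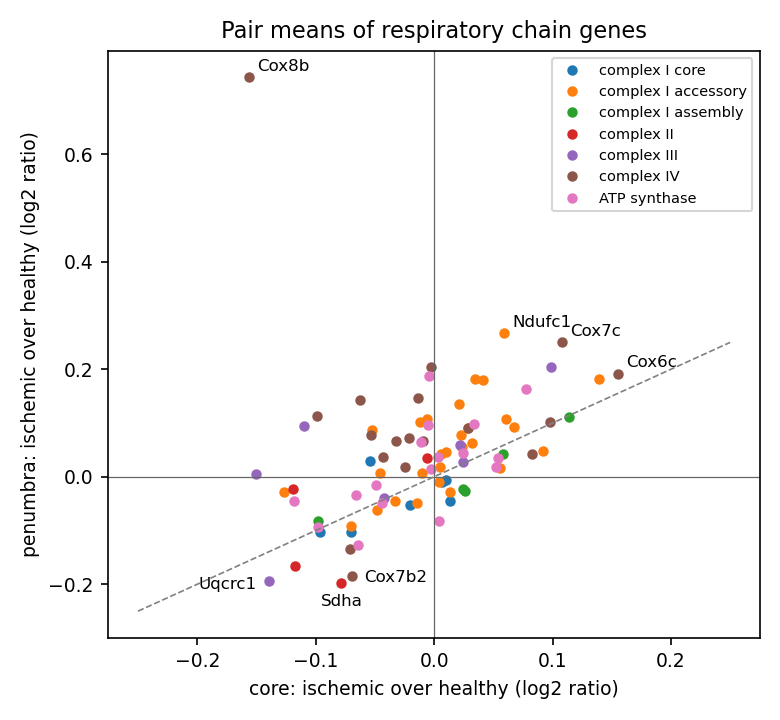
Pair means of ischemic over healthy tissue (log2) in the penumbra against the core for 86 respiratory chain genes, coloured by complex. The dashed line marks equal values. Cox8b lies far above it at -0.16 (core) and 0.74 (penumbra), and every other gene is within 0.21 of it.

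Levels were also compared between the dissected pieces, within each dye. In healthy tissue the median of core over penumbra was -0.032 (log2) over 86 members, with an SD over members of 0.19, or 0.15 without Cox8b, beside 0.29 over all features. One difference was called, Cox8b (1 of 86), where 1.13% of all features were called. Cox8b was -1.30 in Cy3 and -1.16 in Cy5, so healthy penumbra tissue held 2.34-fold more of it than healthy core tissue. Between ischemic pieces it was -2.23 and -2.02, or 4.37-fold more in the penumbra, and again it was the single member called (1 of 86), where 1.35% of all features were. Cox6a2 went the other way and was higher in the core piece, by 0.65 and 0.61 in healthy tissue (1.54-fold) and by 0.43 and 0.51 in ischemic tissue. Cox6b2 was lower in the core piece in both dyes, at -0.63 and -0.35 in healthy and -0.55 and -0.86 in ischemic tissue.

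The means of Cox6c and Cox7b2 between pieces rested on 1 array. Cox6c was 0.05 in Cy3 and -1.20 in Cy5 for healthy pieces, and -1.16 and -0.07 for ischemic pieces, and in each case the low value came from core replicate 2, where both channels were dim (log2 intensity 14.56 and 14.80, beside 15.76 and 15.83 on core replicate 1). Cox7b2 was likewise low in both channels of core replicate 2, at -0.03 in Cy3 and -0.82 in Cy5 for healthy pieces and at -0.71 and 0.09 for ischemic pieces. Ischemic over healthy values compare the channels of 1 spot and do not rest on this comparison between arrays.

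**Figure D4:**
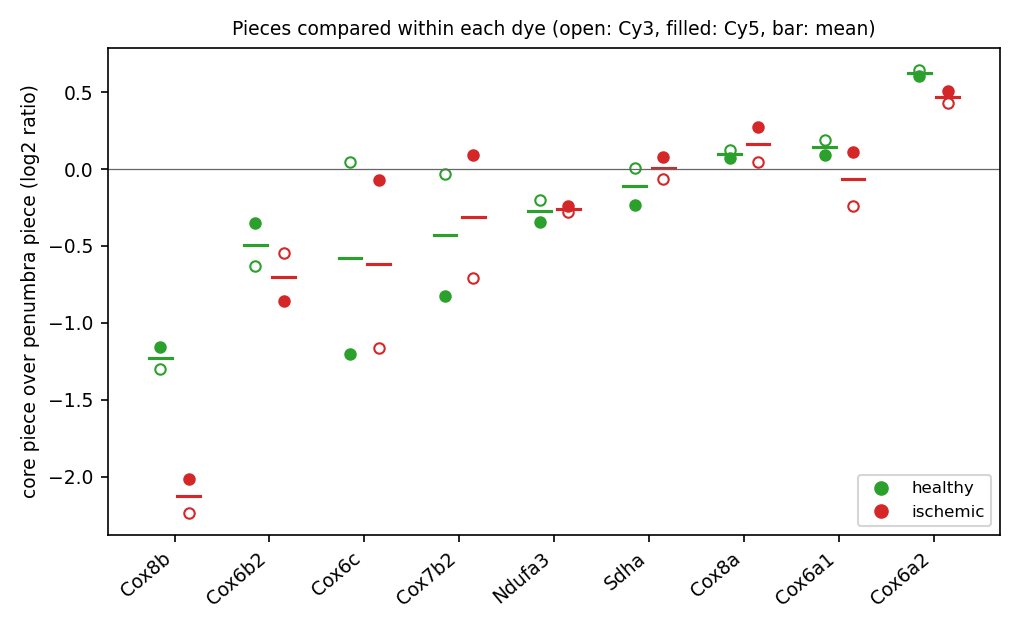
Core piece over penumbra piece (log2) for 9 respiratory chain genes, in healthy (green) and ischemic (red) tissue. Open circles are Cy3, filled circles Cy5 and bars their mean. Cox8b is low in every dye and tissue (-1.16 to -2.23), Cox6a2 is high in each, and Cox6c and Cox7b2 are low in Cy5 for healthy and in Cy3 for ischemic tissue, both from core replicate 2.

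Some marker lists of other cell types also stood higher in ischemic penumbra, and others did not. In bulk tissue, fewer cells of a type and less RNA per cell cannot be told apart. In the penumbra, 7 of 8 choroid plexus markers were past 1.2-fold higher in ischemic tissue (median 0.58, range 0.036 to 0.97), and in the core 0 of 7 were (median -0.050). Their summed normalised intensity was 1804 to 1822 in healthy core and 1675 to 1756 in ischemic core, 22389 to 23833 in healthy penumbra and 35128 to 37783 in ischemic penumbra. Of 7 meningeal markers, 5 were past 1.2-fold higher in the penumbra (median 0.36) and 0 in the core (median -0.21), and of 8 thalamic markers 4 were (median 0.30), with 0 of 7 in the core (median -0.079). Between healthy pieces, however, the meningeal median was 0.67, with 1 of 7 called higher in the core piece, and the thalamic median was 0.017, with 1 of 8 called higher there. Muscle markers, listed because Cox8b and Cox6a2 are muscle forms, did not follow Cox8b: their median was -0.036 in the penumbra with 0 of 9 past 1.2-fold, and between healthy pieces it was 0.43, with 1 of 9 called, higher in the core. Striatal markers, also lower in the healthy core piece, had medians of -0.14 in the penumbra and 0.12 in the core. Of these 7 markers, 2 were past 1.2-fold lower in the penumbra and 2 higher in the core. Penumbra medians were -0.12 for neuronal, 0.0034 for cortical, 0.081 for astrocyte, 0.14 for oligodendrocyte, 0.017 for microglia and -0.022 for endothelial and pericyte markers. The meningeal, thalamic and muscle lists were added after the values were seen. The part of these cell types in the Cox8b values was not tested. Neutrophil markers had medians of 2.11 in the core and 1.496 in the penumbra, where members stayed near 0.

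Genes of the same pathway outside the rule were followed in 7 lists, and an eighth, of subunits encoded in mitochondrial DNA, had no gene on the array. Of cytochrome c, its tissue forms and complex III partners, 8 were measured, with medians of -0.051 in the core and -0.040 in the penumbra. Cyc1, the cytochrome subunit of complex III, had means of -0.0051 and 0.0032, and Cycs, somatic cytochrome c, of 0.16 and 0.13. At 1.2-fold, 1 gene was lower in the core (Cyct, the testis form, -0.30) and 1 in the penumbra (Uqcc1, an assembly factor, -0.31). Cyct was dim, at a mean log2 intensity of 6.25, beside a median of 9.32 over all features. Of 17 complex IV assembly factors the medians were 0.052 and 0.059, with 0 past 1.2-fold in the core and 1 higher in the penumbra, Cox11, a copper chaperone, at 0.06 and 0.59. Of 13 assembly factors of complexes I, II and V the medians were -0.053 and -0.074, with 0 past 1.2-fold in the core and 1 lower in the penumbra, Sdhaf1, which serves complex II, at -0.23 and -0.31. None of 17 genes of the citric acid cycle and pyruvate dehydrogenase went past 1.2-fold in either region (medians -0.0068 and -0.048). Of 15 regulators of mitochondrial biogenesis, 0 were past 1.2-fold in the core (median 0.057). In the penumbra 1 was lower, Gabpb1, a partner of GABP (-0.34, SD 0.34). Ppargc1a, which encodes a coactivator of respiratory genes, had means of 0.020 and 0.032. Of all features, 6.33% were past 1.2-fold higher and 2.19% lower in the core, and 8.06% and 4.84% in the penumbra. In lists this small, counts of 0 or 1 cannot be told apart from those shares.

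Larger values stood in a few genes that guard mitochondria or answer low oxygen, while the medians of their lists stayed near 0. Of 15 mitochondrial chaperones and proteases (medians 0.0043 in the core and 0.0067 in the penumbra), 2 were past 1.2-fold higher in both regions. Of all features, 6.33% were in the core and 8.06% in the penumbra. Hspe1 and Hspd1 encode the partners of the matrix chaperonin. Hspe1 was 0.74 and 0.58 in the core and 0.63 and 0.59 in the penumbra, and Hspd1 was 0.39 and 0.36 in the core and 0.30 and 0.25 in the penumbra. All arrays of both genes lay above 0. The pair mean of Hspe1, 0.66 in the core and 0.61 in the penumbra, lay above that of every respiratory chain gene measured, apart from Cox8b in the penumbra. Of 14 hypoxia genes (medians 0.033 and 0.040), 2 were past 1.2-fold higher in the core and 4 in the penumbra, with 0 lower in either. Adm, which encodes adrenomedullin, had means of 0.77 and 0.66, and Egln3, an oxygen-sensing hydroxylase, of 0.48 and 0.42. Also past 1.2-fold in the penumbra were Ddit4, at 0.32 and 0.22, and Higd1a, at 0.00062 and 0.56 (SD 0.39). The genes past 1.2-fold in these lists are named for that reason, after their values were seen.

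**Figure D5:**
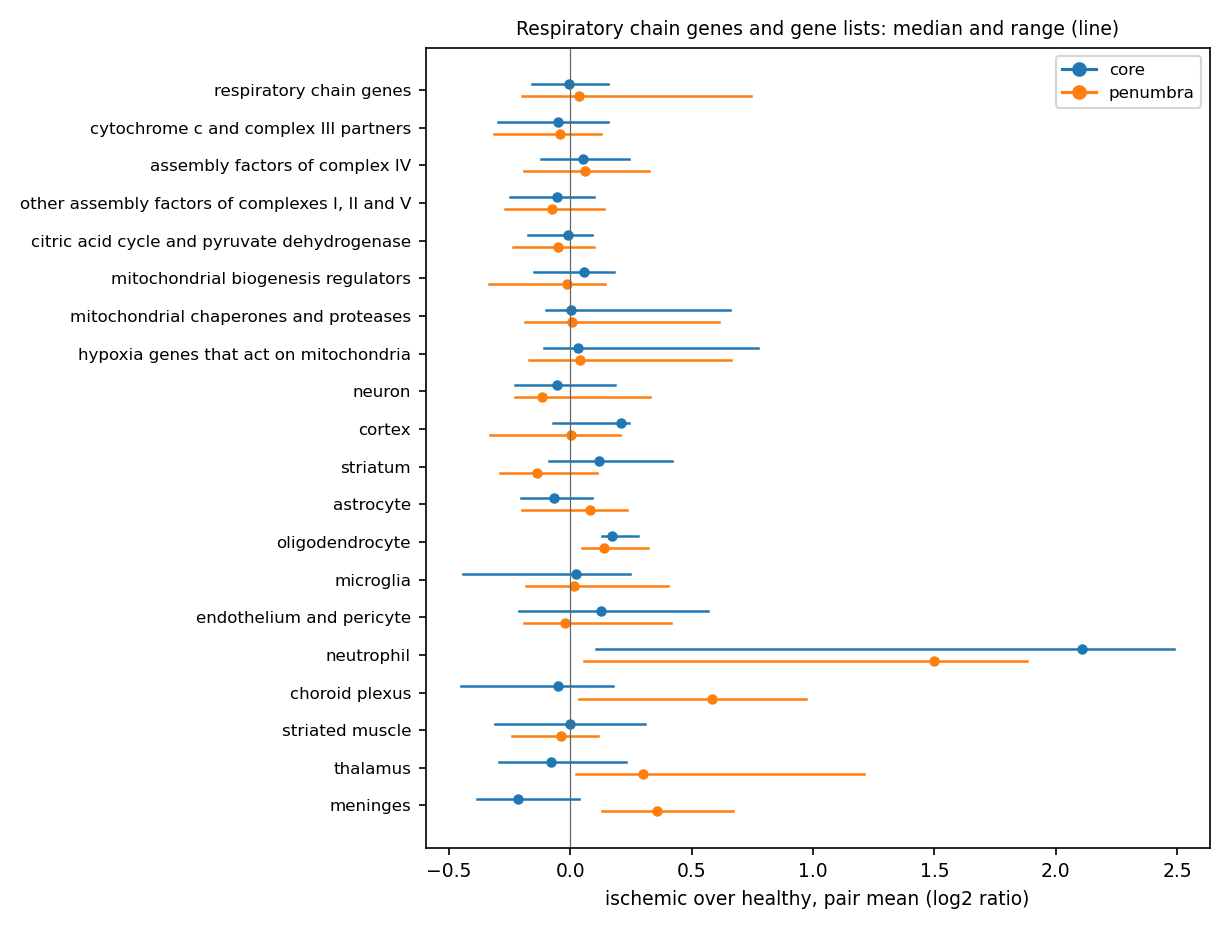
Ratio of ischemic over healthy tissue (log2, pair mean) in the core (blue) and penumbra (orange), with the median as a dot and the range over genes as a line, for 86 respiratory chain genes, for lists of the same pathway and for marker lists. Respiratory chain genes sit at medians of -0.0048 and 0.037, and neutrophil markers reach medians of 2.11 and 1.496.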

How the data were processed

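Spot intensity in Cy3 and Cy5 comes from the deposited scanner files, and the submitters' processing notes name Feature Extraction 11.0.1.1 from Agilent. A deposited table of the series holds log10 ratios, which equal Agilent's processed Cy5 over Cy3 within 5e-06. No mean signals are in the columns used, so median signals took the place of the planned choice. Signals were background-corrected (normexp, offset 50) and then loess-normalised array by array with R 4.3.3 and limma 3.58.1. Controls and outlier spots had weight 0, and ratios were turned to ischemic over healthy tissue. For a region, probes were used that exceeded background clearly in healthy or in ischemic tissue on each of its arrays. The brightest probe stood for a gene, and 16 members had 2 or more probes, whose pair means differed by at most 0.18. Pieces were compared on single channels after loess and Aquantile. Of 41174 probes, 23374 were named through RefSeq accessions (GRCm38.p6), and 108 belonged to members. The call and limma scripts were tested on simulated data, and tables were made with Python 3.11.15 and pandas 2.3.3. The small number of arrays, 1 dye-swapped pair per region, limits precision.

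The members and gene lists were chosen with earlier results of these data known. Named were members called in any comparison, the extremes of each complex in each region, all Sdh genes, restricted isoforms with their common partners, the 3 widest differences each way and the 2 with the widest SD, and from the pathway lists genes past 1.2-fold and some of the 2 brightest. Alternatives were processed signals, median centring, spike-in scaling, no filter, the mean over probes, single arrays and limma over arrays. All arrays were on 1 slide, so batches of slides could not be compared.
The values without Cox8b and the comparison with other features in the members' brightness band were added after the data were seen. One result is not reported here.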

Additional observations from a re-analysis of the deposited data

Results flagged for a closer look

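Among the respiratory chain genes, 3 stood out between the regions, 1 by a test of the difference and 2 because their arrays lay on opposite sides of 0, which alone does not show a difference. None of 86 was called at 2-fold. Cox8b differed by -0.8994 (log2, core minus penumbra), with means of -0.16 and 0.74, and passed the limma test of the difference with a dye coefficient (adjusted p 0.0014), but not limma without that coefficient (adjusted p 0.24). Choroid plexus markers, which stood higher in ischemic penumbra too, are given beside it in the report, and their part in the value was not tested. Cox6b2 differed by -0.2112, with both core arrays below 0 and both penumbra arrays above it (limma with a dye coefficient, adjusted p 0.14). Ndufs8 differed by -0.0836 with its arrays split in the same way (limma with a dye coefficient, adjusted p 0.56). With the processed signals and with median centring the Ndufs8 penumbra mean was below 0 as well (-0.0074 and -0.082). Such a split was found in 2 of 86 members (2.33%) and in 1460 of 24199 features (6.03%).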

How the results depend on the processing

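With the processed signals, no filter or the mean over probes, each count and median over the members stayed within 1.5 times or within 1 SD, except that 1 member in place of 2 was past 1.2-fold higher in the penumbra with the processed signals and with the mean over probes. Median centring gave 1 higher and 1 lower there, a penumbra median of -0.056 and a median difference of core minus penumbra of 0.053. Spike-in scaling gave medians of -0.48 (core) and -0.43 (penumbra), 1 member higher in the penumbra, and 84 lower in the core and 78 in the penumbra at 1.2-fold. On that scale 90.4% of all features in the core and 86.6% in the penumbra were lower too. limma over arrays called 16 penumbra members with a dye coefficient and 1 without, and 1 for the difference with it.

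Leaving out 1 array leaves a single dye orientation and no residual error. The core then gave 1 to 1 members at 2-fold, 2 to 11 higher and 2 to 13 lower at 1.2-fold. The penumbra gave 0 to 1 at 2-fold, 8 to 17 higher and 3 to 8 lower. The difference of regions gave 0 to 2 calls and medians from -0.11 to 0.030. Between pieces, Cy3 alone called 2 healthy and 2 ischemic members and Cy5 alone called 2 healthy members. No paired analysis was possible because the regions share no replicate numbers. For the 36 named members that were measured, 65 of 72 values moved by over 1 SD under spike-in scaling, 11 under median centring and 7 with the processed signals. The cause of these shifts was not tested. With 1 pair per region, the spread between mice could not be measured.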
